A study of Mus musculus with 6 samples.

Results

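The TGF-β system of sorted colon tumor cells was followed here through 10 genes, chosen by name: the ligand genes Tgfb1, Tgfb2 and Tgfb3, the activin subunit gene Inhba, the latency gene Ltbp1, the receptor genes Tgfbr1, Tgfbr2 and Tgfbr3, and the signaling genes Smad3 and Smad7. They are 10 of the 22880 genes in the table, and all 10 were among the 12014 genes that passed the filter on low counts. The cells were MC-38GFP, a mouse colon adenocarcinoma line carrying green fluorescent protein. They grew as orthotopic tumors in the cecum wall of C57BL/6J mice and were sorted as living cells positive for the fluorescent protein and negative for CD45 and CD31. The 3 Mock libraries and the 3 HIF-1α-KD libraries both came from cells transduced with the pLKO.1-puro vector, and neither had been passaged in vivo. The HIF-1α-KD cells carried a stable reduction of HIF-1α, the oxygen-regulated subunit of hypoxia-inducible factor, while the stroma of the host kept its own HIF-1α. The sources used here give neither the age of the mice, nor the number of animals behind a library, nor whether either line was a single clone, so the p-values measure the spread between these libraries only.

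TGF-β is made as a precursor that is cut by furin-like proteases at an arginine-rich site, but the cut propeptide stays around the mature ligand and keeps it latent. A latent TGF-β binding protein such as LTBP1 anchors this complex in the matrix until integrins or proteases release the ligand. The freed ligand binds TGFBR2, often handed over by the co-receptor betaglycan (TGFBR3), and TGFBR2 then activates the kinase TGFBR1. TGFBR1 phosphorylates SMAD2 and SMAD3, which enter the nucleus with SMAD4 and act on target genes. SMAD7 is among these targets and blocks the receptor in return. In the gut, the pathway restrains the growth of normal epithelium and drives matrix production in fibroblasts.

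The sequences around the processing site are shown because they set TGF-β ligands, here Tgfb1 and Tgfb3, apart from the activin subunit within the same family. Each is a stretch of coding sequence from the GENCODE annotation of GRCm38, written 5′ to 3′ on the gene's own strand, and the capitals mark the 4 codons of the arginine-X-X-arginine site next to which the mature ligand begins.
Tgfb1: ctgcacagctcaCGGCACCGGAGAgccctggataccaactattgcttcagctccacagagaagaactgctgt
Tgfb3: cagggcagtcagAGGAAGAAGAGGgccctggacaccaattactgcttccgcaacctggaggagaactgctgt
Inhba: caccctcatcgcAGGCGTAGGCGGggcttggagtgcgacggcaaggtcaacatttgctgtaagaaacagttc
The stretches are bases 811 to 882 of the coding sequence of Tgfb1, 877 to 948 of Tgfb3 and 901 to 972 of Inhba. Inhba held 2 candidate sites, of which the last was used. After the site, Tgfb1 and Tgfb3 each have 112 codons and Inhba has 116. Over these mature parts the coding bases were identical at 74.1% of aligned positions between Tgfb1 and Tgfb3, whereas Inhba matched Tgfb1 at 54.9% and Tgfb3 at 55.4% of positions. The transcripts of Tgfb3 shared no run longer than 15 bases with those of Tgfb1 or Tgfb2. The longest run shared by any pair of members was 38 bases, between Tgfb1 and Tgfbr2.

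Reads counted on genes numbered 19845852 to 30809139 in a library, and a member had between 77 reads (Tgfb2) and 5159 reads (Tgfbr3) in a library. Values are normalized counts, each gene's reads divided by a factor per library. Differences are given as log2 of HIF-1α-KD over Mock with a standard error (SE), from limma on log2 of the normalized count plus 1, with p-values adjusted over all 12014 genes. Hif1a itself had 6914, 5424 and 4945 normalized counts in Mock cells, against 697.3, 3142 and 1928 in HIF-1α-KD libraries. The log2 difference of Hif1a was -1.82 (SE 0.46, adjusted p = 0.2185 by limma). Leaving out 1 library moved it between -2.3 and -1.21, the latter without HIF-1α-KD library 1. The groups did not overlap, and HIF-1α-KD library 1 held the least. Car9, a carbonic anhydrase gene used as a marker of hypoxia, differed by -2.93 (SE 0.49, adjusted p = 0.0553 by limma), and Vegfa, encoding an angiogenic growth factor, by -0.41 (SE 0.13, adjusted p = 0.294 by limma).

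Markers of other cells were measured too, and none of them passed an adjusted p of 0.05 by limma, against 0.391% of all genes. At an unadjusted p of 0.05, which 12.7% of genes passed, Cdh5 was lower and Cspg4, Rgs5 and Pdgfrb were higher in HIF-1α-KD cells. The labels name a colon adenocarcinoma line, but of 10 colon epithelial markers only 3 passed the filter. Their summed normalized count was 67.95 to 613.7 in Mock and 78.55 to 139.1 in HIF-1α-KD libraries, with the high value in Mock library 3, and Epcam reached at most 37.45. The 12 leukocyte markers summed to 4523 to 4683 in Mock cells, against 2905 to 14160 in HIF-1α-KD libraries, with the high value in HIF-1α-KD library 3, although the sort removed CD45+ cells. The 8 pericyte and smooth muscle markers, mostly Pdgfrb and Cspg4, summed to 3012 to 6353 in Mock, against 6758 to 8375 in HIF-1α-KD libraries. These sums did not overlap, while Myh11 stayed at or under 8.086. Among the single genes, only Rgs5 (log2 difference 1.15) and Cspg4 (1.42) separated the groups. Pdgfrb (0.59), Acta2 (0.33), Des (0.39), Notch3 (0.04), Mcam (0.13) and Myh11 overlapped. The 8 endothelial markers summed to 510.9 to 631.7 in Mock and 328.0 to 484.4 in HIF-1α-KD libraries, also without overlap of the sums. This sum was mostly Cdh5, which alone lay below 0 (log2 difference -0.84) among the 3 tested, while Tek (1.26) and Pecam1 (0.26) lay above 0, and Cldn5 was at 0 in 5 of 6 libraries. The 8 fibroblast markers, mostly Dcn, summed to 27110 to 47500 and 18860 to 32870. The part of these cells in the values below was not tested, and a lower share of a cell type cannot be told apart from less RNA per cell.

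None of the 10 members passed an adjusted p of 0.05 in limma, where 0.391% of all genes did, 0.00832% as higher and 0.383% as lower after the knockdown. At an unadjusted p of 0.05, which 12.7% of genes passed, Tgfb3 was higher in HIF-1α-KD cells and Tgfbr3 and Smad7 were lower, so 3 of 10 members passed. By edgeR on the recovered reads, 0 members passed the adjusted threshold, against 0.391% of all genes. By DESeq2, 1 member (Tgfb3) passed it, against 2.36% of all genes. The groups did not overlap for 2 members, Tgfb3 and Smad7, and for 19.2% of all genes. The median log2 difference over the 10 members was 0.16, beside 0.02 for all genes tested.

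**Figure D1:**
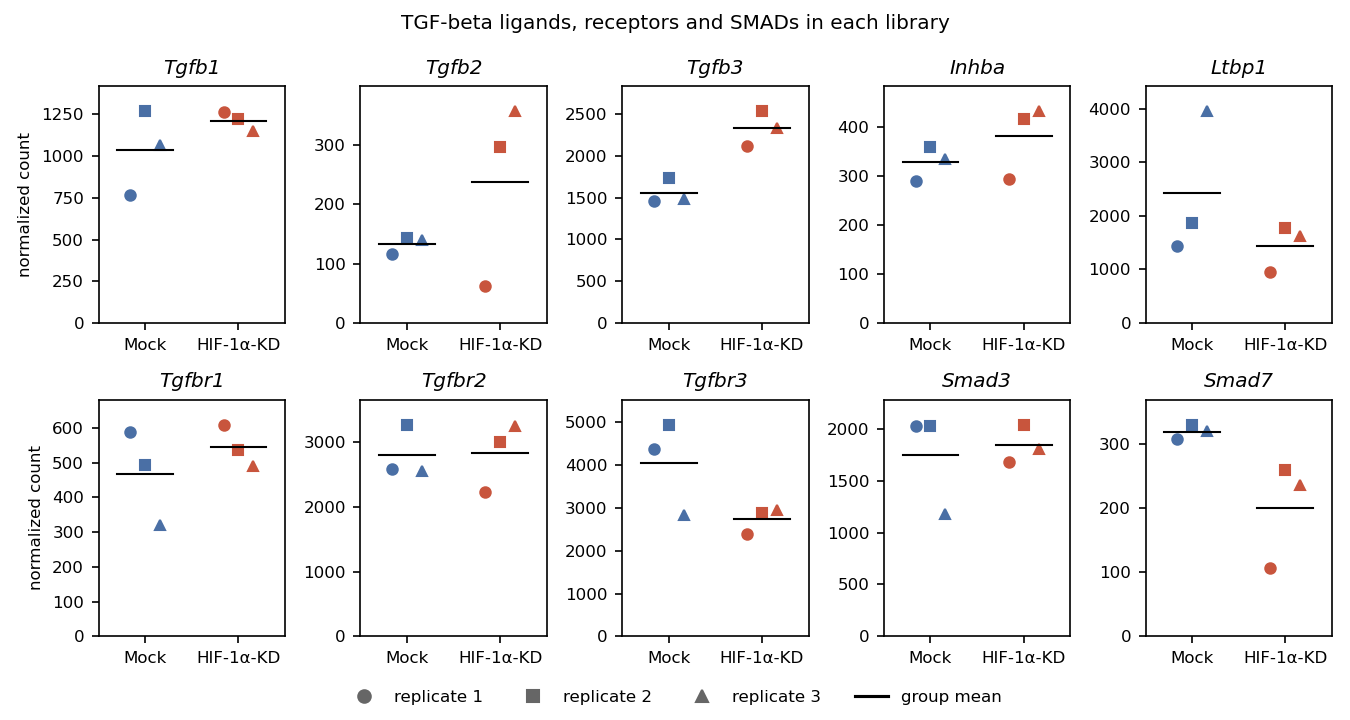
Normalized counts of the 10 members (vertical axis of each panel, from 0) in the 3 Mock and 3 HIF-1α-KD libraries, with a symbol for each replicate and the group mean as a line. Tgfb3 and Smad7 are the panels in which the groups do not overlap, with means of 1558 against 2326 for Tgfb3 and 318.6 against 200.5 for Smad7.

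Among the 10 members, Tgfb3 had the smallest p. The gene (ENSMUSG00000021253, chr12:86056745-86079041 on the minus strand of GRCm38) encodes TGF-β3, the isoform best known from palate closure. Its normalized count was 1459, 1732 and 1482 in Mock cells, against 2119, 2530 and 2329 in HIF-1α-KD libraries. Every HIF-1α-KD library lay above every Mock library, and HIF-1α-KD library 1, the lowest of its group for 8 of 10 members, was still above the highest Mock value. The means were 1558 ± 151 and 2326 ± 206 (SD, n = 3), a 1.49-fold higher level and a log2 difference of 0.58 (SE 0.14, 95% interval 0.25 to 0.91). The adjusted p was 0.2185 by limma and 0.0437 by DESeq2. The pericyte marker sum was also higher in every HIF-1α-KD library, without overlap, but most of its genes, Pdgfrb among them, overlapped. Its part in the Tgfb3 value was not tested. Over 16 alternative settings the log2 difference stayed between 0.52 and 0.66, with an adjusted p between 0.0437 and 0.490. The 3' part of Tgfb3 overlaps Ttll5, a tubulin-modifying enzyme gene on the opposite strand, and the sources used here do not state whether the counting used strand, so reads from the overlap cannot be assigned with certainty. Ttll5 had 710 ± 81.8 normalized counts in Mock and 998 ± 175 in HIF-1α-KD cells (SD, n = 3; log2 difference 0.48, SE 0.18, adjusted p = 0.345 by limma), and its part in the Tgfb3 value was not tested.

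Tgfb1 (chr7:25687002-25705077, plus strand) encodes TGF-β1, the isoform most studied in tumors. It had 769.4, 1268 and 1064 normalized counts in Mock cells, against 1264, 1225 and 1149 in HIF-1α-KD libraries. The groups overlapped, and Mock library 1 alone was under 1000. The log2 difference was 0.26 (SE 0.20, 95% interval -0.19 to 0.71, adjusted p = 0.621 by limma).

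Tgfb2 (chr1:186622792-186705989, minus strand) encodes TGF-β2, the isoform that depends most on betaglycan to reach TGFBR2. It was even in Mock libraries at 117.0, 142.6 and 140.1 normalized counts, but uneven in HIF-1α-KD libraries at 61.93, 296.2 and 356.9. HIF-1α-KD library 1 lay under all Mock libraries and the other two lay above them. The SD on the log2 scale was 0.16 in Mock cells, against 1.38 in HIF-1α-KD libraries. The log2 difference of 0.50 (SE 0.58, 95% interval -0.82 to 1.81, adjusted p = 0.762 by limma) therefore rested on single libraries, since it was 1.29 without HIF-1α-KD library 1 (adjusted p = 0.0815 by limma) and 0.03 without HIF-1α-KD library 3. Library 3 was also the one with the high leukocyte marker sum.

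Inhba (chr13:16011851-16031621, plus strand) encodes the βA subunit of activin A, which uses its own receptors but the same SMAD2 and SMAD3. Its normalized count was 289.3, 358.9 and 333.4 in Mock cells, against 292.8, 416.1 and 430.9 in HIF-1α-KD libraries. The lowest HIF-1α-KD value lay inside the Mock range and the other two above it. The log2 difference was 0.20 (SE 0.21, 95% interval -0.29 to 0.69, adjusted p = 0.736 by limma).

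Taking the 3 TGF-β ligands together, their FPKM values (reads per kilobase of gene width, scaled to the total reads of the library) summed to 46.1, 71.73 and 57.37 in Mock cells, against 72.19, 84.24 and 80.51 in HIF-1α-KD libraries. The groups did not overlap, although Mock library 2 came close to the lowest HIF-1α-KD library. The means were 58.4 ± 12.9 and 79.0 ± 6.17 FPKM (SD, n = 3), a ratio of 1.35, and the two-sided exact permutation test gave p = 0.1, the smallest that 3 against 3 libraries allow. This sum was chosen after its parts had been seen.

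Within that pool, Tgfb1 made up 62.9% ± 4.18 in Mock and 57.1% ± 5.17 in HIF-1α-KD cells, Tgfb3 32.1% ± 3.85 and 36.2% ± 1.16, and Tgfb2 5.05% ± 0.47 and 6.73% ± 4.32 (SD, n = 3). All 3 shares overlapped between the groups. The two-sided exact permutation test gave p = 0.2 for Tgfb1, 0.3 for Tgfb3 and 0.5 for Tgfb2, or 0.45, 0.45 and 0.5 after adjustment over the 3 ligands. Leaving out 1 library moved the difference in share, in percentage points, between -8.74 and -4.06 for Tgfb1, between 2.93 and 6.31 for Tgfb3 and between -0.07 (without HIF-1α-KD library 3) and 4.09 (without HIF-1α-KD library 1) for Tgfb2, so its direction rested on single libraries. The lead of Tgfb1 over Tgfb3 depends on the length used. With the longest coding transcript in place of the width in the table, Tgfb3 took 48.3% in Mock and 53.2% in HIF-1α-KD cells and Tgfb1 49.0% and 43.3%.

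**Figure D2:**
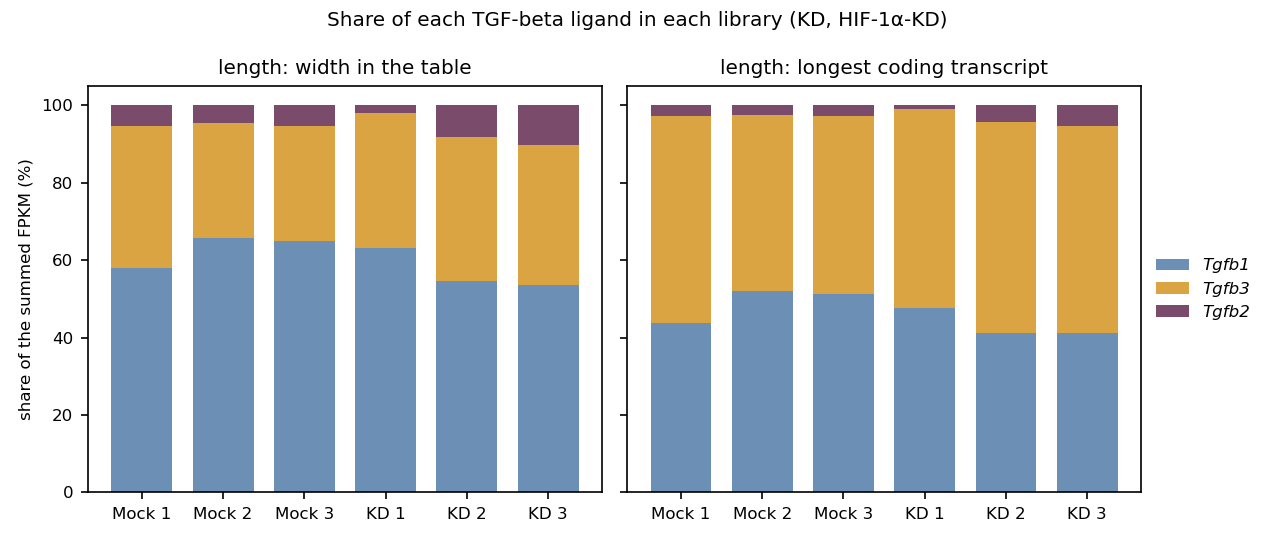
Share of each TGF-β ligand in the FPKM sum of Tgfb1, Tgfb2 and Tgfb3, in percent, for each of the 6 libraries as stacked bars from 0, with the width in the table as the length on the left and the longest coding transcript on the right. On the left, Tgfb1 takes between 53.72% and 65.73% of the pool in every library, and Tgfb2 takes between 1.89% and 10.21%, with both ends of that range among HIF-1α-KD libraries.

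Ltbp1 (chr17:75005568-75392512, plus strand) encodes the protein that tethers latent TGF-β to the matrix. Its normalized count was 1444, 1877 and 3955 in Mock cells, against 947.5, 1770 and 1621 in HIF-1α-KD libraries. The groups overlapped, and Mock library 3 held more than any other library. The log2 difference was -0.66 (SE 0.37, 95% interval -1.51 to 0.19, adjusted p = 0.504 by limma) and -0.24 without Mock library 3. That library also had the high colon epithelial marker sum.

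Tgfbr1 (chr4:47353222-47414931, plus strand), the gene of the type I receptor kinase, had 588.4, 493.8 and 320.1 normalized counts in Mock cells, against 608.9, 536.0 and 490.9 in HIF-1α-KD libraries. Apart from the low Mock library 3 the groups covered nearly the same range. The log2 difference was 0.26 (SE 0.24, 95% interval -0.29 to 0.81, adjusted p = 0.689 by limma) and 0.01 without Mock library 3.

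Tgfbr2 (chr9:116084293-116175360, minus strand), the gene of the ligand-binding type II receptor and a frequent target of mutation in colon cancer with mismatch repair defects, had 2584, 3261 and 2550 normalized counts in Mock cells, against 2231, 3000 and 3249 in HIF-1α-KD libraries. The groups overlapped, and HIF-1α-KD library 1 lay below every Mock library. Its log2 difference was 0.01 (SE 0.18, adjusted p = 0.992 by limma), with a 95% interval of -0.41 to 0.42.

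Tgfbr3 (chr5:107106570-107289629, minus strand), the gene of betaglycan, had the largest difference among the 3 receptor genes of the members. It had 4363, 4937 and 2823 normalized counts in Mock cells, against 2398, 2881 and 2946 in HIF-1α-KD libraries. Mock libraries 1 and 2 lay well above all HIF-1α-KD libraries, but Mock library 3 lay among them. The means were 4041 ± 1093 and 2742 ± 299 (SD, n = 3), with a log2 difference of -0.53 (SE 0.21, 95% interval -1.01 to -0.04, adjusted p = 0.378 by limma). Without Mock library 3 the difference was -0.77 (adjusted p = 0.219 by limma), and without Mock library 2 it was -0.36 (adjusted p = 0.536 by limma).

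Smad3 (chr9:63646767-63757994, minus strand), which encodes the transcription factor that TGFBR1 activates, had 2026, 2021 and 1179 normalized counts in Mock cells, against 1676, 2036 and 1802 in HIF-1α-KD libraries. Only Mock library 3 stood apart, below the rest. The log2 difference was 0.12 (SE 0.22, 95% interval -0.39 to 0.62, adjusted p = 0.856 by limma), and it was -0.14 without Mock library 3.

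Smad7 (chr18:75367529-75395935, plus strand), the gene of the inhibitory SMAD, had 306.5, 329.2 and 320.1 normalized counts in Mock cells, against 107.0, 259.0 and 235.6 in HIF-1α-KD libraries. Mock libraries lay close together, and all 3 HIF-1α-KD libraries lay below them, library 1 by far the most. The means were 318.6 ± 11.4 and 200.5 ± 81.8 (SD, n = 3). The fold fitted on the log scale was 1.70-fold lower in HIF-1α-KD cells, a log2 difference of -0.76 (SE 0.33, 95% interval -1.51 to -0.02, adjusted p = 0.3856 by limma). Without HIF-1α-KD library 1, which also held the least Hif1a, the difference was -0.37. Smad7 was the only member to pass an unadjusted p of 0.05 together with a fold of at least 1.5, a rule that 7.48% of all genes passed.

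**Figure D3:**
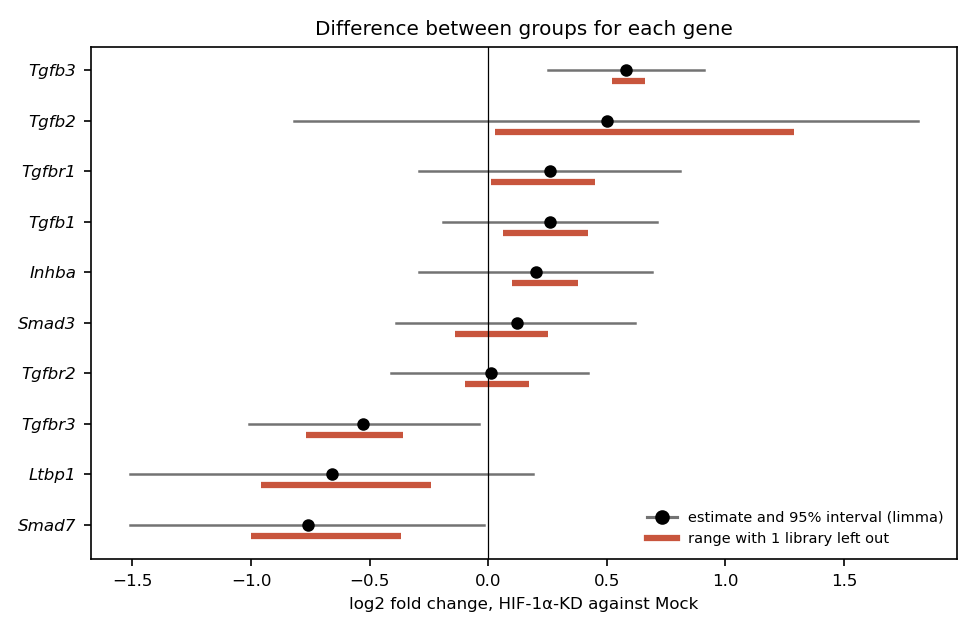
Log2 difference of HIF-1α-KD over Mock cells for the 10 members (horizontal axis), with 95% intervals as thin gray lines, the range when any 1 library was left out as thick red lines, and 0 as the reference line. The intervals of Tgfb3 (0.25 to 0.91), Tgfbr3 (-1.01 to -0.04) and Smad7 (-1.51 to -0.02) leave out 0 before adjustment for the number of genes, and Tgfb2 has the widest interval.

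The 6 libraries differed in ways that crossed the members. HIF-1α-KD library 1 was the lowest of its group for 8 of 10 members and the highest for Tgfb1 and Tgfbr1. Mock library 3 was the lowest of its group for Tgfbr1, Tgfbr2, Tgfbr3 and Smad3, and the highest for Ltbp1. Mock library 1 was the lowest for 6 members, all 4 ligand genes among them. Leaving out a single library moved the log2 difference by over 1.5 times for every member except Tgfb3 and Tgfbr3. Besides the values given above, the log2 difference of Tgfb1 was 0.06 without Mock library 1 and 0.42 without Mock library 2, and that of Inhba was between 0.10 and 0.38.

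Per length, with the width in the table, the co-receptor and the transcription factor led in Mock cells by their means. In Mock library 3, however, Ltbp1 ranked 1 and Smad3 ranked 4. Mean FPKM in Mock was 58.9 ± 17.5 for Tgfbr3, 48.8 ± 14.4 for Smad3 and 37.0 ± 10.2 for Tgfb1, followed by Ltbp1 (26.5 ± 14.2), Tgfbr2 (23.6 ± 4.3) and Tgfb3 (18.5 ± 2.5) (SD, n = 3). Neighbors among these 6 overlapped in their libraries and were not separated. A gap followed Tgfb3, and Smad7 (7.86 ± 0.55), Inhba (7.52 ± 1.05) and Tgfbr1 (7.44 ± 2.17) were not separated from one another, whereas Tgfb2 was lowest at 2.91 ± 0.38 FPKM and apart from Tgfbr1. The type II receptor gene Tgfbr2 was thus at a higher level per length than the type I gene Tgfbr1 in every library.

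In HIF-1α-KD cells the order was Smad3 (53.4), Tgfb1 (44.9), Tgfbr3 (41.5), Tgfb3 (28.6), Tgfbr2 (24.8), Ltbp1 (16.6), Inhba (9.09), Tgfbr1 (9.0), Tgfb2 (5.46) and Smad7 (5.17), as mean FPKM. Smad3 was separated from Tgfb1, Tgfbr3 from Tgfb3, Ltbp1 from Inhba and Tgfbr1 from Tgfb2, and other neighbors overlapped. With the longest coding transcript as the length, Tgfbr3 still led in Mock cells (26.6) but Tgfb1 (19.1) and Tgfb3 (18.4) came next and Smad3 (13.7) moved down. In HIF-1α-KD cells, Tgfb3 (28.6) then led over Tgfb1 (23.1).

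**Figure D4:**
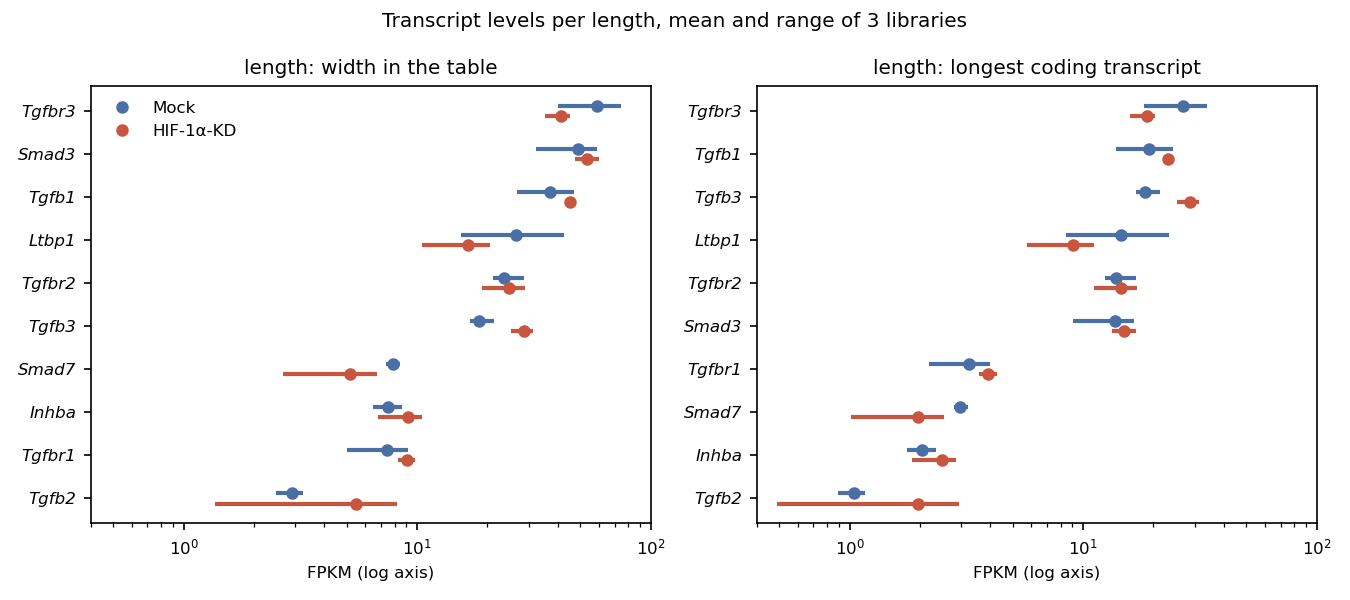
FPKM of the 10 members on a log axis in Mock and HIF-1α-KD cells, with the mean of 3 libraries as a point and their range as a line, and with the width in the table on the left and the longest coding transcript on the right. Tgfb2 is lowest in Mock cells on both scales, while the order of Tgfb1, Tgfb3 and Smad3 depends on the length.

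The genes whose pattern over the 6 libraries was most like that of Tgfb3 were Gmppb (Pearson r = 0.993), Eya3 (0.989) and Ccdc93 (0.989), on log2 of the normalized count plus 1. Those most like Tgfbr3 were 2310047M10Rik (0.990), Wisp2 (0.982) and Cpeb3 (0.975). These are descriptions over 6 libraries, picked as the highest of all genes tested, and 237 genes for Tgfb3 and 89 for Tgfbr3 had an r over 0.9.

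Promoters were available from RefSeq (GRCm38.p6) for 7 of the members, not for Tgfb3, Tgfbr3 and Smad7. They were searched on both strands, in the 250 bases before the start, for the core that hypoxia-inducible factor binds, in its form ACGTG and in its form with G in the first place, GCGTG. They were also searched for CAGAC, part of the SMAD binding element. Of 32851 promoters, 16.6% held ACGTG, 28.2% held GCGTG, 38.6% held at least either of them and 42.2% held CAGAC. Among the members, ACGTG was found for Tgfb2 and Ltbp1 only, and the windows are shown because these are the members with that core (capitals, on the gene's strand).
Tgfb2: ttgaaggcaaacACGTGgtttggggagca
Ltbp1: gctgcctgacgtCACGTctgctgcagatt
The Tgfb2 promoter is chr1:186705940-186706239 on the minus strand and the Ltbp1 promoter chr17:75005279-75005578 on the plus strand. The Tgfb2 match lies 50 bases before the start and is palindromic with the base before it, so it was counted on both strands. The Ltbp1 match lies 67 bases before the start and is on the opposite strand. GCGTG was found for Tgfb1, Inhba, Tgfbr1, Tgfbr2 and Smad3. CAGAC was found for Tgfb2, Ltbp1 and Tgfbr2 and in a second listed promoter of Tgfbr1. These matches are letters in a window and say nothing of a factor's binding.

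Of 12 other genes of latency and activation listed, 10 were tested and 0 passed the adjusted threshold, against 0.391% of all genes. Their log2 differences lay above 0 for 5 and below 0 for 5, with a median of 0.04. The lowest p belonged to Itgb8, the gene of an integrin chain that frees latent TGF-β, with 685.5 ± 76.7 normalized counts in Mock and 456.9 ± 133 in HIF-1α-KD cells (SD, n = 3; log2 difference -0.62, SE 0.23, adjusted p = 0.339 by limma), without overlap of the groups. Lrrc32, which encodes a surface anchor of latent TGF-β, had 11.08, 23.92 and 18.12 normalized counts in Mock cells, against 94.1, 23.98 and 27.72 in HIF-1α-KD libraries. Its high value came from HIF-1α-KD library 1 alone (log2 difference 1.19, SE 0.59, adjusted p = 0.446 by limma). Itgb6, the gene of the epithelial integrin chain with the same role, was at 0 in all 6 libraries.

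Of 10 activin-related ligand genes only Gdf11 and Inha passed the filter, and Nodal, Mstn and Inhbc were at 0 in every library. Gdf11, encoding a ligand that signals through SMAD2 and SMAD3, had 220.4, 309.1 and 239.2 normalized counts in Mock cells, against 456.8, 467.6 and 430.9 in HIF-1α-KD libraries. The groups were well apart, with a log2 difference of 0.83 (SE 0.20, 95% interval 0.39 to 1.27) and an adjusted p of 0.1962 by limma and 0.0280 by DESeq2. Inha, the inhibin α chain, differed by -0.34 (SE 0.36, adjusted p = 0.739 by limma).

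Of 8 other receptor genes tested (of 10 listed), 0 passed the adjusted or the unadjusted threshold, against 0.391% and 12.7% of all genes, and the median log2 difference was -0.04. Eng, the gene of the co-receptor endoglin, differed by 0.68 (SE 0.31, adjusted p = 0.407 by limma) and Acvr1, an activin and BMP receptor kinase gene, by 0.31 (SE 0.20, adjusted p = 0.562 by limma). Of 5 other SMAD genes tested (of 6), 0 passed either threshold, beside the same 0.391% and 12.7% of all genes, so little can be read from lists this short. Smad1, which serves BMP signals, differed by -0.37 (SE 0.20, adjusted p = 0.494 by limma). Its groups narrowly did not overlap, at 791.6, 707.2 and 729.6 normalized counts in Mock, against 433.5, 628.3 and 697.7 in HIF-1α-KD libraries. Smad4, the common partner, differed by -0.18 (SE 0.15, adjusted p = 0.646 by limma).

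All 16 antagonists and intracellular regulators were tested, and 0 passed the adjusted threshold, against 0.391% of all genes. At an unadjusted p of 0.05, 1 was higher and 1 lower, against 12.7% of all genes in either direction. Fstl3, encoding a follistatin-like protein that traps activin and GDF11, had 746, 731.1 and 1006 normalized counts in Mock cells, against 314.5, 551.6 and 671.1 in HIF-1α-KD libraries. The groups did not overlap (log2 difference -0.74, SE 0.28, adjusted p = 0.345 by limma). Tgfbrap1, the gene of a receptor-associated protein, differed by 0.52 (SE 0.20, adjusted p = 0.361 by limma). Of 9 genes of BMP ligands and related factors only 3 were tested, and Grem1, a BMP antagonist gene, had the lowest p (log2 difference -0.50, SE 0.26, adjusted p = 0.472 by limma), followed by Bmp1, a procollagen protease gene (0.28, SE 0.24, adjusted p = 0.657 by limma).

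Known target genes of TGF-β lay on both sides of 0. Of 28 tested (of 30 listed), 4 were higher and 5 lower at an unadjusted p of 0.05, which 7.04% and 5.69% of all genes passed, and the median log2 difference was -0.10. Only Cdkn1a, the gene of the cell cycle inhibitor p21, passed the adjusted threshold, against 0.383% of all genes as lower. It fell from 1735, 1238 and 2119 normalized counts in Mock to 604, 484.4 and 544.1 in HIF-1α-KD libraries, 3.05-fold as fitted on the log scale, with a log2 difference of -1.61 (SE 0.21, adjusted p = 0.0245 by limma). No target gene passed without Mock library 1, without Mock library 3, without HIF-1α-KD library 2 or without HIF-1α-KD library 3, nor with limma without trend or with a replicate block (0 in each), and DESeq2 called 6, against 2.36% of all genes.

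Bhlhe40, a transcriptional repressor gene also known as a hypoxia target, differed by -1.12 (SE 0.23), with an adjusted p of 0.130 by limma and 0.000676 by DESeq2. Cdkn1a too is known to respond to hypoxia as well as to TGF-β.

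Col3a1, the gene of collagen III, went the other way, with 64990, 135100 and 84960 normalized counts in Mock cells, against 206400, 194900 and 179700 in HIF-1α-KD libraries. The lowest HIF-1α-KD library lay above the highest Mock library (log2 difference 1.09, SE 0.26, adjusted p = 0.206 by limma and 0.00399 by DESeq2). The pericyte marker sum was also higher without overlap, though most of its genes overlapped. The fibroblast marker sum overlapped, at 27110 to 47500 in Mock and 18860 to 32870 in HIF-1α-KD libraries. Their part in the Col3a1 value was not tested. Others also passed the unadjusted threshold and were named after their values were seen. As log2 differences, Tgfbi (0.55), Id1 (0.94) and Col1a1 (1.99) were higher and Cyr61 (-1.24) and Junb (-1.30) lower. Col1a1 had 9848 normalized counts in Mock library 1, against 62850 and 47070 in the other Mock libraries. Cyr61 had 1946 in HIF-1α-KD library 1, against 3920 and 6335 in the other HIF-1α-KD libraries.

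**Figure D5:**
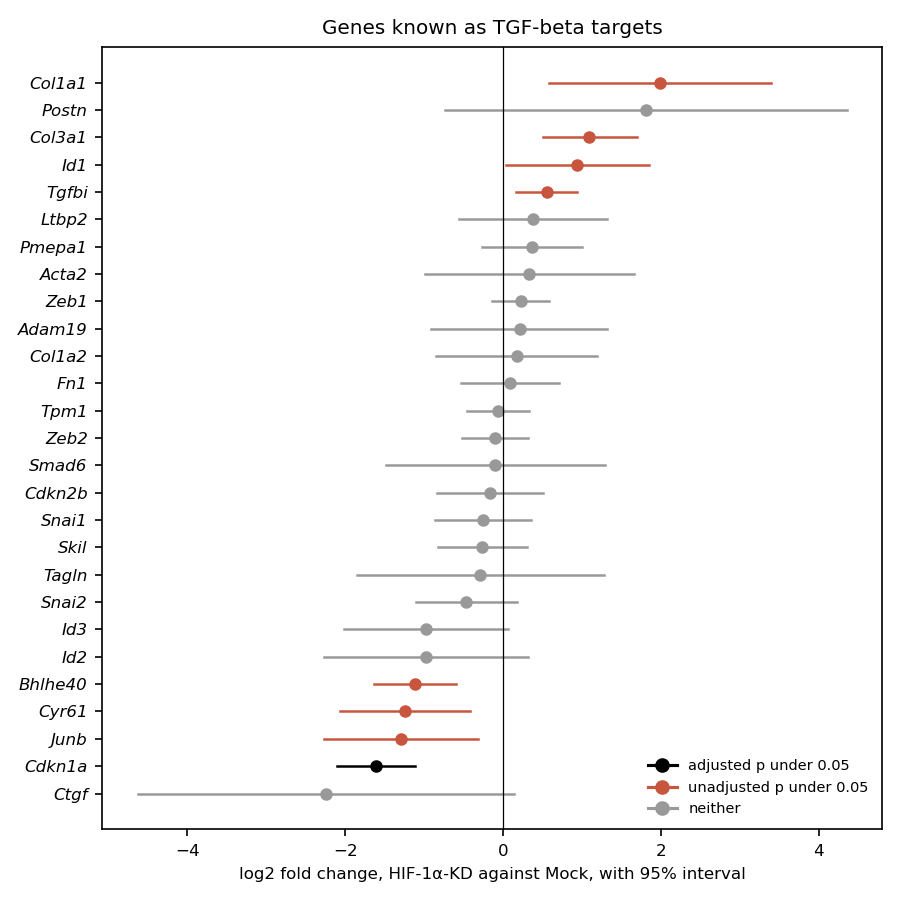
Log2 difference of HIF-1α-KD over Mock cells with 95% intervals for tested genes of the TGF-β target list, ordered by value and colored by whether the adjusted p, only the unadjusted p or neither was under 0.05. Cdkn1a (-1.61) is the only gene past the adjusted threshold, and Col1a1 (1.99) and Col3a1 (1.09) stand on the other side of 0.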

How the data were processed

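RNA of sorted MC-38GFP tumor cells was measured in 3 Mock and 3 HIF-1α-KD libraries, grouped by the titles in the labels. According to the study's methods, polyadenylated RNA was prepared with a stranded kit (the labels name a TruSeq RNA kit without saying so), and single-end reads were trimmed, aligned with STAR, counted with featureCounts and tested with DESeq2. The methods name GRCh38, whereas the submitters' processing notes name GRCm38, STAR and edgeR, and the genes carry mouse Ensembl identifiers. Versions and strand settings are not given in the sources used here. The authors deposited normalized counts, a signal in which each gene's count was divided by a factor per library, and FPKM values per gene width. The log2 ratio, the p-value and the false discovery rate deposited by the authors come from their own comparison and were not used. The fraction of GC and the width that the authors deposited describe each gene's transcripts.

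Multiplying back gave whole reads for 100% of values up to 300 reads (within 0.05 reads). Genes were filtered with filterByExpr of edgeR 4.0.16 (minimum count of 10), which left 12014, and limma 3.58.1 was run on log2(normalized count + 1) with a mean-variance trend, two-sided, with Benjamini-Hochberg adjustment over all genes. Ligand shares were compared with exact permutation tests. The edgeR quasi-likelihood test and DESeq2 1.42.0 were run on the recovered reads as alternatives, and the tests were checked on simulated data. Other alternatives covered scaling, filter, pseudocount (0.1 and 10), FPKM plus 0.1, a block for replicate number and leaving out each library. The length of the longest coding transcript (GENCODE vM21) was added after seeing the data. The members and lists were chosen with earlier results of these data known. Named were all 10 members, per list the up to 4 genes with the smallest p among those under 0.05 unadjusted (the 2 smallest p where fewer than 2 were under it), 3 genes most like each of the 2 members with the smallest p, and Hif1a, Car9 and Vegfa. A withheld item that the naming rule covers is counted in its list but not reported here. R 4.3.3 and Python 3.11.15 were used.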

Additional observations from a re-analysis of the deposited data

How the results depend on the processing

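No member passed the adjusted threshold under any of the 16 alternatives except Tgfb3, with DESeq2 (log2 difference 0.57, adjusted p = 0.0437), which made the count of members called 1. The intervals of 7 members held 0, which does not show that these genes were alike in both groups, and Tgfb2 had as few as 77 reads in a library. The log2 difference changed sign for Tgfbr2 (-0.01 by edgeR, -0.02 with TMM scaling, -0.10 to 0.17 leaving out 1 library) and for Smad3 (-0.14 to 0.25 leaving out 1 library). Members under an unadjusted p of 0.05 were 3, but 2 with edgeR and 1 to 3 leaving out 1 library. They were 1 with scaling to library size, with FPKM and with limma without trend, and 4 with DESeq2 and with the replicate block. Of all 12014 genes, 1529 were under it. This was 1609 with scaling to library size, 1574 with FPKM, 1397 with limma without trend and 1493 with edgeR. It was 1557 with DESeq2, 1324 with the replicate block and 1025 to 1565 leaving out 1 library. Over the whole table, 1 gene was called higher and 46 lower at the adjusted threshold. The counts were 96 and 187 with DESeq2, 0 and 1 with limma without trend, and 0 to 6 and 0 to 32 leaving out 1 library, where fewer libraries remained. With edgeR 0 genes were called higher. Of the target list, 1 gene was called, against 6 with DESeq2, 0 with limma without trend and 0 to 1 leaving out 1 library, and Gdf11 made the count of the activin list 1 with DESeq2. The cause was not tested. Scaling to library size and FPKM moved the median of all genes from 0.02 to 0.08.

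No pairing by replicate number was evident. Same-numbered Mock and HIF-1α-KD libraries deviated from their group means with correlations of -0.139, -0.123 and 0.023. Differently numbered libraries gave -0.072 to 0.162. Such values cannot show whether the libraries were collected in pairs. A replicate block left 0 genes called higher and 0 lower (1324 at an unadjusted p of 0.05) and 0 in the target list. It changed no call of a member at the adjusted threshold, but 4 members instead of 3 were under an unadjusted p of 0.05.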
